A study of Mus musculus with 6 samples.

Results

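Aquaporins are a family of small membrane proteins, and 7 aquaporin genes (Aqp1, Aqp3, Aqp4, Aqp5, Aqp8, Aqp9 and Aqp11) were followed here through the cells and tissue of the aged mouse uterus. They were chosen by name and not by level, from 12 aquaporin genes among the 30828 genes of the section tables, and all 7 were also among the 24077 genes of the single-cell table. The other 5 aquaporins (Mip, Aqp2, Aqp6, Aqp7 and Aqp12) were nearly silent: Aqp2 had 115 UMIs in all dissociated cells and 22 in all sections, and none of the other 4 passed 11 UMIs in either assay. A UMI is a molecular tag that marks 1 captured mRNA molecule.

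Each aquaporin forms a channel through which water crosses a cell membrane along an osmotic gradient. Aqp1, Aqp4, Aqp5 and Aqp8 are known mainly as water channels, whereas Aqp3 and Aqp9 belong to the aquaglyceroporins, which also pass glycerol and other small solutes, and Aqp11 is a divergent member that sits largely on intracellular membranes. In the uterus estrogen is known to draw water into the tissue and the lumen, and aquaporins of the epithelium, the muscle and the vessels are among the routes that water can take.

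The uteri came from CD-1 mice aged 12 months. Control (CO) mice received corn oil as neonates, and DES mice received diethylstilbestrol, a synthetic estrogen, in corn oil at 1 mg/kg/day on days 1 to 5 of life. By the study's methods the CO mice were taken in estrus, and the DES mice were in persistent estrus. The tissue was dissociated into 1 CO library pooled from 2 mice and 1 DES library pooled from 4 mice, and 4 spatial sections of 1 mouse each were named CO A, CO B, DES A and DES B. By the study's methods a pathologist checked stained sections for epithelium in both groups and for adenocarcinoma in DES. Mice were then selected for the spatial sections, and their blocks were cored to the areas of interest. The study reports that CO B had a fold in the tissue and that clusters of DES B were hard to identify.

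The CO library held 32387 cells and 353460067 UMIs and the DES library 16312 cells and 288919190 UMIs, with medians of 6779 and 10153.5 UMIs per cell. The authors named a cell type for 12253 CO and 9701 DES cells, and the remaining 20134 and 6611 cells carried no type. Every epithelial, endothelial, mesothelial, muscle and pericyte marker of a list was highest in its own CO type, as were 4 of 6 stromal markers. The DES library held 1 cell labelled stromal and 5 labelled endothelial, so most comparisons of cell types between libraries were limited to the epithelium and mesothelium. The libraries shared 180 cell barcodes, of which 13 CO and 46 DES cells were epithelial. The sections held 1357 to 1834 spots and 9117099 to 12506177 UMIs, and a spot, 55 µm wide, covers several cells. Because each library was a single pool, no test across mice could be made in dissociated cells, and the intervals given for them cover counting error only. Levels are given as CPM, the UMIs of a gene per 1000000 UMIs of the cells or spots summed.

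The 250 bases before the RefSeq start of Aqp3 and Aqp8 (build GRCm38.p6) are shown because the levels of these genes differed widely between kinds of epithelial cells. Capitals mark TATAAA, the core of a TATA box. Aqp3 lies on chromosome 4 from 41092722 to 41098183 on the minus strand and Aqp8 on chromosome 7 from 123462291 to 123468004 on the plus strand.
Aqp3, chr4:41098184-41098433: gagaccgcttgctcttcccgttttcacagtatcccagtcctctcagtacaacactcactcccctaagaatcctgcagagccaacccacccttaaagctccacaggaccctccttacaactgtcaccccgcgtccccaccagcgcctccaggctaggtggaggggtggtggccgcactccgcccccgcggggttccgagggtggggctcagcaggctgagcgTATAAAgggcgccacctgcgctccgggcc
Aqp8, chr7:123462044-123462293: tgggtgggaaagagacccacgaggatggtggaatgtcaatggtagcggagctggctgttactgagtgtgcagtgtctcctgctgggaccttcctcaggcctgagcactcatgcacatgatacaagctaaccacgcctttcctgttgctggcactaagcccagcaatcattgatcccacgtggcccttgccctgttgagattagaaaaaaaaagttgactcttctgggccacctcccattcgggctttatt
The TATAAA of Aqp3 lay 29 to 24 bases before the start, and 7.59% of 32851 such windows held this motif on the printed strand. Neither window held GGTCA or its reverse complement TGACC, the letters that each partner of an estrogen receptor dimer is known to bind, which 35.2% of windows held on 1 strand or the other. Aqp5, on chromosome 15 from 99590782 to 99594829 on the plus strand, held 1 such site 90 to 86 bases before its RefSeq start, shown in capitals with its neighbours. That start lies inside the GENCODE interval just given, so the site is downstream of the GENCODE start. Aqp11 held a TGACC 230 to 226 bases before its RefSeq start. Aqp9 has 2 RefSeq starts, and the window of 1 held a TGACC 176 to 172 bases before it while that of the other held none, so 3 of the 7 windows read held a site.
Aqp5, chr15:99590930-99590950: gccgcgtgGGTCAcgtggccc
No window of the 6 members read (Aqp1, Aqp3, Aqp5, Aqp8, Aqp9 and Aqp11) held the full estrogen response element, GGTCA followed after 3 bases by TGACC, which 0.0639% of windows held. These matches describe letters only. Aqp1 lies on chromosome 6 (55336432 to 55348555, plus strand), Aqp9 on chromosome 9 (71110659 to 71168682, minus strand) and Aqp11 on chromosome 7 (97724006 to 97738289, minus strand), and all are annotated as protein coding.

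Among dissociated cells the 7 genes fell into different compartments. Aqp5, Aqp4 and Aqp8 were epithelial, and Aqp1 belonged to vessels, stroma and muscle. Aqp3 was highest in basal epithelial cells of the DES library, which held 633 of the 989 DES UMIs of the gene. Aqp11 was highest in CO endothelial cells, at 30.8 CPM, and low in the other named types, and Aqp9 was almost absent. The map of levels by cell type shows this division.

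**Figure D1:**
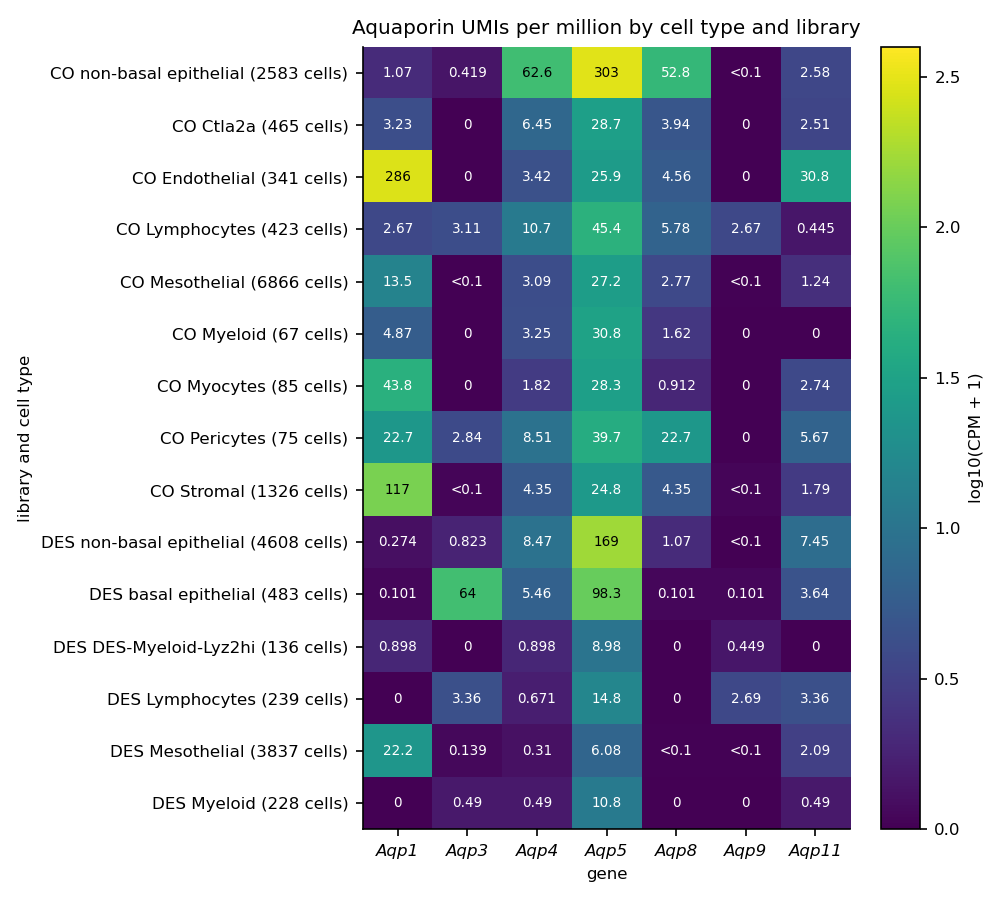
CPM of the 7 aquaporins (columns) in each cell type of at least 50 cells (rows, with the number of cells), colored by log10(CPM + 1) and with the CPM printed in each square. Aqp5 reached 303 in CO and 169 in DES non-basal epithelial cells, Aqp1 286 in CO endothelial cells and Aqp3 64.0 in DES basal cells.

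Aqp5, the water channel of many glands and airways, was at 303 CPM (95% interval 299 to 307) in the 2583 CO epithelial cells and at 169 CPM (167 to 171) in the 4608 DES epithelial cells that the study clustered apart from basal cells, here called non-basal. It was 1.80-fold lower in the DES library (1.77 to 1.83). With each cell thinned to 3000 UMIs, 54.0% of 2562 CO cells and 35.5% of 4559 DES cells held an Aqp5 UMI, and before thinning 94.2% and 86.0% did. Named cells other than epithelium, for which Aqp5 is not a usual marker, held one in 8.60% of thinned CO cells (27.6 CPM) and 2.46% of thinned DES cells (6.49 CPM). They ran from 24.8 to 45.4 CPM over 8 CO types and from 6.08 to 14.8 CPM over 4 DES types, and are read as background, at median depths of 9361.5 and 11370.5 UMIs per cell against 23458 and 24663.5 in the epithelium. Aqp5 was spread over the whole epithelium: the lowest CO cluster held 105 CPM and the lowest DES cluster 32.8 CPM, each above its library's background.

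In non-basal epithelial cells Aqp8 and Aqp4 had the largest ratios between the libraries among the members at 10 CPM or more. Aqp4, the water channel best known from astrocyte end-feet, was at 62.6 CPM (60.9 to 64.4) in CO and 8.47 CPM (8.03 to 8.92) in DES non-basal epithelial cells, 7.40-fold lower in DES (6.97 to 7.85). Aqp8, a channel that also passes ammonia and hydrogen peroxide, was at 52.8 CPM (51.2 to 54.5) and 1.07 CPM (0.915 to 1.24), 49.5-fold lower in DES (42.6 to 58.0). Thinned shares of cells with a UMI were 13.6% and 2.35% for Aqp4 and 7.88% and 0.307% for Aqp8. In named non-epithelial cells they were 1.25% and 0.138% for Aqp4 (3.49 and 0.341 CPM) and 1.08% and 0.0460% for Aqp8 (3.18 and 0.0284 CPM), all lower than in the epithelium of the same library. Among genes at 10 CPM or more in either library, Aqp4 and Aqp8 were the members at least 2-fold lower in DES, whereas Aqp5 passed this fold in neither direction. Of 8414 such genes, 7.71% were as much lower and 6.92% as much higher. Without the shared barcodes the DES over CO ratios were 0.133 for Aqp4 and 0.0199 for Aqp8, beside 0.135 and 0.0202 with them. In the sections, each of 1 mouse, Aqp8 was at 0.640 CPM in CO A and 133 CPM in CO B. That gap within CO was wider than the 49.5-fold gap between the pools.

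Aqp11 and Aqp3 were both under 10 CPM in these cells. Aqp11 was at 2.58 CPM in CO and 7.45 CPM in DES non-basal epithelial cells, 2.89-fold higher in DES (2.49 to 3.37). Thinned cells held an Aqp11 UMI in 0.507% of CO and 1.93% of DES cells, beside 0.761% and 0.552% of named non-epithelial cells, so the CO epithelium did not stand above the other types. Aqp3 was at 0.419 CPM in CO and 0.823 CPM in non-basal DES cells, from 33 and 135 UMIs. Thinned shares of cells with an Aqp3 UMI were 0.117% (0.0242 to 0.342) and 0.175% (0.0758 to 0.345), which overlap, beside 0.0107% and 0.0230% of named non-epithelial cells, at a depth that left 3 and 8 cells with a UMI. With all UMIs the CPM intervals were 0.288 to 0.588 in CO and 0.690 to 0.974 in DES, which do not overlap, and with cells thinned to 5000 UMIs the shares were 0.158% and 0.511%.

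Aqp3, the aquaglyceroporin of basal epidermal keratinocytes, stood out in the basal cells of the DES library. These are 483 epithelial cells with more than 1 UMI of each of Krt14, a keratin of the basal layer of stratified epithelium, and Trp63, a transcription factor of basal cells. The CO library held 0 such cells, and 4 of the 483 also lay in the non-basal DES clusters. Their Aqp3 level was 64.0 CPM (59.1 to 69.2), which was 77.8-fold the level of the non-basal DES cells (64.5 to 94.4). After thinning, 20.3% of the basal cells and 0.175% of the non-basal cells held an Aqp3 UMI. In clusters 8 and 11 of the study's joint clustering, which hold basal cells, DES Aqp3 was at 55.7 and 90.1 CPM. The other epithelial members were lower in the basal cells than in non-basal DES cells: Aqp5 was at 98.3 CPM, or 0.583-fold (0.546 to 0.621), Aqp4 at 5.46 CPM, or 0.645-fold (0.482 to 0.846), and Aqp11 at 3.64 CPM, or 0.489-fold (0.341 to 0.680). The Aqp4 contrast turned on DES cluster 5, described below. The other non-basal DES clusters together held Aqp4 at 3.93 CPM (3.63 to 4.26), not above the basal cells (4.10 to 7.13). Of the 98 thinned basal cells with Aqp3, 12 (12.2%) also held Aqp5 and none held Aqp4. Among basal cells without Aqp3 the shares were 16.9% for Aqp5 and 0.519% for Aqp4. Over all 5255 DES cells labelled epithelial the DES over CO ratio of Aqp3 was 12.0, in place of 1.97 in non-basal cells. Those 5255 include the basal cells and also cells that are in neither set.

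The CO epithelium divided Aqp8 and Aqp4 between glands and lumen. The study names 4 of 15 CO epithelial clusters as glandular (3, 8, 13 and 14), 10 as luminal and cluster 12 as candidate stem cells. Since aquaporin counts were part of the data that were clustered, these contrasts are descriptions. Aqp8 was at 444 CPM in the 417 cells of the glandular clusters and 4.32 CPM in the luminal clusters, a ratio of 103 (91.2 to 116), so that 92.8% of its UMIs came from 16.1% of the cells. Clusters 8, 14 and 3 held 627, 454 and 428 CPM, whereas cluster 13 held 99.9 CPM. Aqp4 had the opposite pattern, at 2.53 CPM in glandular and 71.8 CPM in luminal clusters, 28.4-fold lower in glands (18.8 to 45.4). The luminal level of Aqp8 (3.84 to 4.84) was little above the 3.18 CPM (upper bound 3.54) of non-epithelial CO cells, and the glandular level of Aqp4 was not above their 3.49 CPM.

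Within the lumen Aqp4 was not uniform. Its level ran from 41.6 CPM in cluster 4 to 152 CPM in cluster 5 over 8 of the luminal clusters, while luminal clusters 10 and 11 held only 2.53 and 2.13 CPM, not above the 3.49 CPM of non-epithelial CO cells. Of 348 thinned CO cells with an Aqp4 UMI, 4 (1.15%) also held Aqp8 and 181 (52.0%) also held Aqp5. Among cells without an Aqp4 UMI the shares were 8.94% for Aqp8 and 54.3% for Aqp5. Aqp5 crossed the boundary, at 451 CPM in glandular and 290 CPM in luminal clusters, a ratio of 1.56 (1.504 to 1.611). Cluster 13 was highest at 586 CPM and cluster 12 lowest at 105 CPM. Aqp11 was at 7.35 CPM in glands and 1.73 CPM in lumen, and clusters 14 and 12 led with 12.1 and 11.9 CPM.

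**Figure D2:**
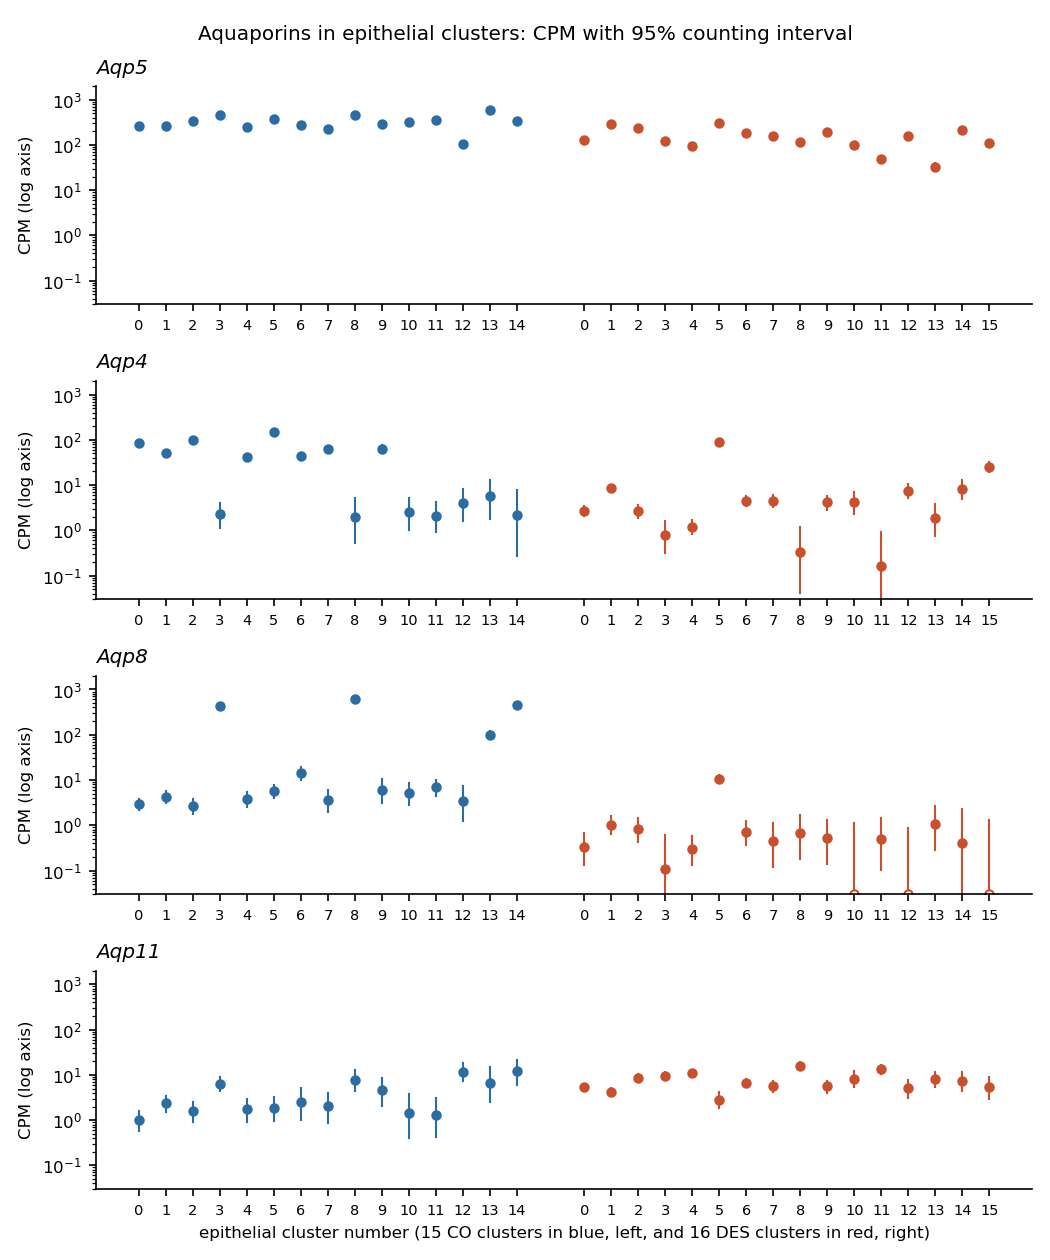
CPM on a log axis with its 95% counting interval for 4 aquaporins in the 15 CO (blue) and 16 DES (red) epithelial clusters, numbered separately in each library; open points on the axis are clusters with 0 UMIs. Aqp8 separated CO clusters 3, 8, 13 and 14 from the rest, and in DES Aqp4 peaked in cluster 5 at 87.8 CPM.

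In the DES epithelium Aqp4 and Aqp8 were both highest in the same cluster. Cluster 5, which the study proposes as cancer cells, held Aqp4 at 87.8 CPM, or 22.3-fold the other DES clusters (20.1 to 24.9), and its 295 cells were 6.40% of the cells but held 56.1% of the Aqp4 UMIs. The same cluster held Aqp8 at 10.5 CPM, or 19.8-fold the others (14.6 to 27.0), and the highest Aqp5 level, 308 CPM. Its Aqp11 level, 2.82 CPM, was the lowest of the 16 clusters. Cluster 15 came next for Aqp4 at 25.2 CPM, and the remaining 14 clusters held 0.164 to 8.53 CPM. Aqp5 was as low as 32.8 CPM in cluster 13 and 49.1 CPM in cluster 11, both above the 6.49 CPM of the non-epithelial cells. Aqp11 was highest in cluster 8 at 15.9 CPM.

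Aqp1, the channel of red cells and of vessel walls, was the highest aquaporin in CO endothelial and stromal cells. In CO pericytes and mesothelial cells it was below Aqp5, which stood there at 39.7 and 27.2 CPM, in the range read as background. In CO it was at 286 CPM (266 to 308) in endothelial cells, 117 CPM (111 to 124) in stromal cells, 43.8 CPM in myocytes, 22.7 CPM in pericytes and 13.5 CPM in mesothelial cells, and it was 1.07 CPM in the epithelium. The intervals of myocytes (32.3 to 58.0), pericytes (9.80 to 44.7) and mesothelial cells (12.7 to 14.3) show that the pericytes, with 75 cells, cannot be ordered against the other two. The 5 endothelial cells of the DES library held 14 Aqp1 UMIs, or 267 CPM (146 to 449), which overlaps the CO interval. In mesothelium Aqp1 was 1.64-fold higher in DES (22.2 against 13.5 CPM, ratio interval 1.52 to 1.78), under the 2-fold limit that 1.89% of 8814 mesothelial genes passed upward and 2.33% downward. Aqp11 had its highest level in any named type in CO endothelial cells, at 30.8 CPM (24.5 to 38.3).

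Aqp9, a channel for glycerol and urea found in liver and in white blood cells, gave 37 UMIs in all CO cells and 20 in all DES cells. Of the 35 CO and 20 DES cells with an Aqp9 UMI, 28.6% and 35.0% held at least 20 UMIs of 4 neutrophil markers (S100a8, S100a9, Csf3r and Cxcr2), against 0.482% and 0.534% of cells without one, a limit chosen after the values were seen. In sections its level was 0.240 (CO A) and 0.272 (CO B) CPM against 0.987 (DES A) and 0.607 (DES B) CPM, from 3 to 9 UMIs each, and it entered no test.

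Levels over cell groups, as log2(CPM + 1), were also set beside those of all genes that reached 20 CPM in a group, as a description over groups that share a library and depth. Over 14 groups of cell types, the 3 genes most like Aqp5 by Pearson r were AC167121.2, Ckmt1 and Fxyd4 (0.989, 0.984 and 0.983), those most like Aqp4 were Cldn4, Prss22 and Cyp21a1 (0.963, 0.947 and 0.944), and those most like Aqp1 were Ldb2, Phldb2 and Vwa1 (0.939, 0.936 and 0.932). Over the 31 epithelial clusters the closest genes to Aqp8 were Abcb1b, Gpx3 and Slc13a2 (0.9498, 0.946 and 0.938), those to Aqp4 were Iqgap2, Mndal and Ifi202b (0.864, 0.857 and 0.849), and those to Aqp11 were Fzd10, Cbx6 and Znrf3 (0.894, 0.887 and 0.885).

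In the tissue sections, where 2 CO mice could be compared with 2 DES mice, Aqp4 alone of the members tested was called higher over whole sections. Aqp3 and Aqp5, given below, were also higher in both DES sections than in both CO sections but were not called. Over whole sections Aqp4 was at 29.3 (CO A) and 26.5 (CO B) CPM against 171 (DES A) and 176 (DES B) CPM. Both DES sections lay far above both CO sections, and the sections of each pair lay close together. Basal markers summed to 3.36 (CO A) and 160 (CO B) CPM against 9526 (DES A) and 5644 (DES B) CPM and muscle markers to 19235 and 21140 against 4966 and 5611 CPM, and their part in the section differences of Aqp4, Aqp3 and Aqp1 was not tested. The fitted change was 2.43 on the log2 scale (SE 0.18, 5.39-fold) and passed the edgeR quasi-likelihood test (Benjamini-Hochberg adjusted p = 0.0177 over 14098 genes). Of the 6 members tested Aqp4 was the only one past an adjusted p of 0.05, where 2.67% of all genes were called higher and 2.63% lower. Over 9 alternatives the log2 change of Aqp4 was 2.33 to 2.53 and its adjusted p 1.59e-18 to 0.0890. Without DES A or without DES B the adjusted p was 0.0707 and 0.0890.

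Aqp4 thus differed in opposite directions in the 2 assays: it was 7.40-fold lower in DES than in CO among dissociated non-basal epithelial cells, and 5.39-fold higher in DES among whole sections. In the dissociated DES cells 56.1% of Aqp4 UMIs lay in cluster 5. In both DES sections the highest Aqp4 spot clusters, cluster 8 in DES A (344 CPM over 61 spots) and cluster 7 in DES B (404 CPM over 106 spots), also held Olfm4, the gene of the secreted glycoprotein olfactomedin 4, at 2551 and 2604 CPM. The study takes Olfm4 as a marker of the cancer cells. Olfm4 levels of the other spot clusters are not given here, so these values are not ranked among them. The DES section mice were selected after a check for adenocarcinoma, and the methods describe no such check for the dissociated pools. The cause of the opposite directions was not tested, nor was the part of this selection. In a spot, fewer cells of a type and less RNA per cell cannot be told apart.

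Aqp3 was at 0.320 (CO A) and 6.34 (CO B) CPM against 82.9 (DES A) and 43.2 (DES B) CPM. The groups did not overlap, and the fitted change was 4.06 on the log2 scale (SE 1.08), with an adjusted p of 0.106 by edgeR. The CO sections differed from each other, and in CO B spot cluster 10, 17 spots with 6025 CPM of basal markers, held 36 of its 70 Aqp3 UMIs at 183 CPM. Leaving these spots out, a choice made after the data were seen, gave a change of 5.01 and an edgeR adjusted p of 0.0443. Leaving out CO A or CO B gave changes of 3.12 and 7.33, in fits with no spread between CO mice. The basal markers given above divided the sections as Aqp3 did.

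Aqp5, Aqp1, Aqp8 and Aqp11 were not called in whole sections. Aqp5 was at 210 (CO A) and 217 (CO B) CPM against 294 (DES A) and 448 (DES B) CPM, with no overlap of groups and a log2 change of 0.60 (SE 0.27, edgeR adjusted p = 0.256, 0.237 to 0.934 over alternatives). Aqp1 was at 117, 279, 148 and 110 CPM in the same order and overlapped, with a log2 change of -0.82 (SE 0.43, adjusted p = 0.319). The muscle markers given above were lower in DES A and DES B. Without CO A the Aqp1 change was -1.30, and without CO B it was -0.10.

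Aqp8 differed widely between the sections of 1 group. CO A and CO B held 0.640 and 133 CPM, and DES A and DES B 2.74 and 34.8 CPM. The high and the low section of each group overlapped those of the other, so the fitted log2 change of -1.99 had an SE of 2.03 (edgeR adjusted p = 0.613, 0.135 to 0.952 over alternatives), and without CO B it turned to 4.65. Foxa2, a transcription factor of uterine glands chosen after the values were seen, was at 4.48 CPM in CO A and 3.44 CPM in CO B. Aqp8 in the spots with a Foxa2 UMI was at 1.98 (CO A) and 183 (CO B) CPM against 3.24 (DES A) and 48.5 (DES B) CPM, the first from 1 UMI. In the other spots Aqp8 was at 0.583, 132, 2.62 and 27.7 CPM in the same order. In CO B these other spots held 1400 Aqp8 UMIs, beside 71 in the spots with Foxa2, which were only 36 of 1834 spots. By the study, Foxa2 in CO cells marked mature glands and a few luminal cells only. This split therefore cannot show how much of the Aqp8 lay in glands. The DES sections held more Foxa2, at 22.5 and 37.8 CPM. Aqp11 had 5 to 56 UMIs a section, at 1.12 (CO A) and 5.08 (CO B) CPM against 0.548 (DES A) and 1.11 (DES B) CPM, with a log2 change of -2.05 (SE 0.88, edgeR adjusted p = 0.244). Without CO A its change was -2.76, and without CO B it was -0.64.

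**Figure D3:**
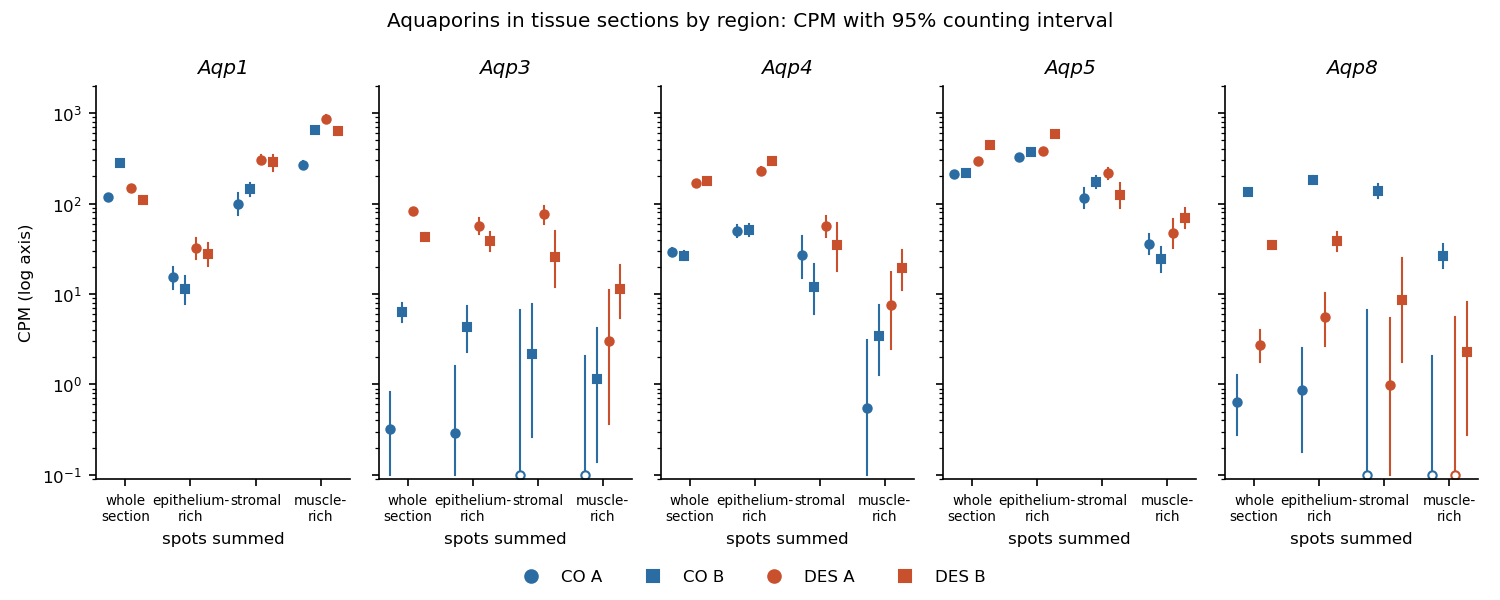
CPM on a log axis with its 95% counting interval for 5 aquaporins in CO (blue) and DES (red) sections, as circles for A and squares for B, over the whole section and 3 kinds of spots; open points stand for 0 UMIs. Aqp4 was higher in DES A and DES B than in CO A and CO B in each kind of spots, Aqp1 was highest in muscle-rich spots, and Aqp8 was high in CO B and low in CO A.

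Spots were then split by the tissue under them. Epithelium-rich spots are the 15% of spots of a section with the largest share of UMIs from 10 epithelial markers, muscle-rich spots the same by 7 muscle markers, and stromal spots are the clusters that the study names stromal. Each comparison uses the same 4 sections as the whole-section test and is no further evidence from other mice.

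In epithelium-rich spots Aqp4 and Aqp3 were called higher in DES. Aqp4 was at 49.7 (CO A) and 51.5 (CO B) CPM against 232 (DES A) and 295 (DES B) CPM, a log2 change of 2.06 (SE 0.23, 4.18-fold, edgeR adjusted p = 0.0152). Aqp3 was at 0.289, 4.29, 57.2 and 38.4 CPM, a log2 change of 4.09 (SE 0.78, 17.04-fold, edgeR adjusted p = 0.0422). DES A and DES B lay above both CO sections for each gene. The Aqp3 change was 3.14 without CO A and 6.82 without CO B. Of 5 members tested these 2 were called higher, where 3.89% of 11272 genes were called higher and 2.26% lower. The adjusted p of Aqp4 ranged from 1.16e-07 to 0.0822, the latter without DES B, and that of Aqp3 from 1.496e-05 to 0.140, with the call lost without DES A (0.140), without DES B (0.0985) and with 25% of spots (0.0808). In the same spots basal markers summed to 4.91 (CO A) and 57.1 (CO B) CPM against 7999 (DES A) and 5264 (DES B) CPM and muscle markers to 452 and 281 against 803 and 1238 CPM, and their part in these differences was not tested.

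Aqp5 was at 324, 370, 381 and 588 CPM in epithelium-rich spots, in the order CO A, CO B, DES A and DES B. The log2 change was 0.17 (SE 0.28, edgeR adjusted p = 0.754), and without DES B it was -0.22. Aqp1 was at 15.3, 11.2, 32.0 and 27.5 CPM there and was not called (log2 change 0.84, SE 0.29, edgeR adjusted p = 0.157). Without CO A the Aqp1 change was 1.09. Aqp8 was at 0.866, 184, 5.61 and 38.4 CPM, with the same split within groups as over whole sections (log2 change -2.37, SE 1.78, edgeR adjusted p = 0.472). Without CO A the Aqp8 change was -3.38, and without CO B it was 4.27. In dissociated epithelial cells, by contrast, Aqp5 was 1.80-fold lower in DES.

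**Figure D4:**
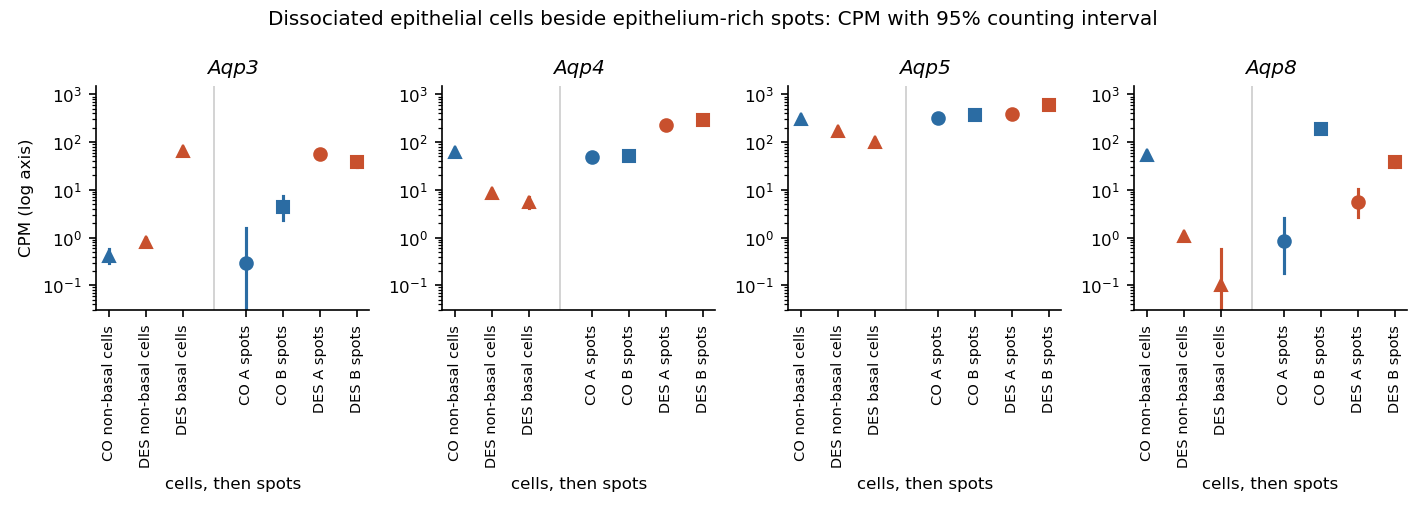
CPM on a log axis with its 95% counting interval for 4 aquaporins, in dissociated epithelial cells (triangles, left of the grey line) and in the epithelium-rich spots of each section (right). CO is blue and DES red; Aqp4 was lower in DES than in CO cells, 8.47 against 62.6, but higher in DES than in CO spots, 232 and 295 against 49.7 and 51.5.

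In stromal spots Aqp3 was at 0 (CO A) and 2.17 (CO B) CPM against 75.8 (DES A) and 26.0 (DES B) CPM. CO had 2 Aqp3 UMIs in these spots and DES 86, a ratio of CPM of 46.8 with a counting interval of 12.6 to 392. DES A and DES B lay above CO A and CO B. The edgeR adjusted p was 0.0337 (up to 0.0480 over the 8 alternatives that tested it), and Aqp3 was the only 1 of 4 tested members called, where 0.796% of 8914 genes were called higher and 0.673% lower. Without DES A, which held 77 of the 86 DES UMIs, Aqp3 did not pass the filter on low counts and was not tested. Its change was 4.48 without CO A. Without CO B the fitted change was 8.16, but CO A held 0 Aqp3 UMIs in these spots, so its size is not firm. Basal markers were at 0 (CO A) and 89.97 (CO B) CPM against 7058 (DES A) and 1998 (DES B) CPM in the same spots, and their part in this difference was not tested. Aqp1 was at 100.3 (CO A) and 144 (CO B) CPM against 305 (DES A) and 286 (DES B) CPM, with no overlap of groups (log2 change 1.218, SE 0.32, edgeR adjusted p = 0.113). With the section letter as a replicate block its adjusted p was 0.0362, and with no filter on low counts 0.0288, in a range up to 0.807. Muscle markers in these stromal spots were at 1441 and 1150 CPM in CO A and CO B against 5163 and 13712 CPM in DES A and DES B, and their part in the Aqp1 difference was not tested. Aqp4 was at 26.9, 11.9, 56.1 and 34.6 CPM (log2 change 1.28, SE 0.48, edgeR adjusted p = 0.280), and spots chosen by stromal markers gave 2.35 with an adjusted p of 0.0330, the lowest of a range up to 0.9998. Aqp5 was at 116, 175, 217 and 124 CPM and overlapped (log2 change 0.17, SE 0.35, edgeR adjusted p = 0.904).

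Of the regions compared, muscle-rich spots held the highest Aqp1. It was at 269 (CO A) and 657 (CO B) CPM against 873 (DES A) and 632 (DES B) CPM, where smooth muscle markers summed to 36202 to 74369 CPM. The groups overlapped (log2 change 0.48, SE 0.41, edgeR adjusted p = 0.674), and the value turned on the CO sections, at -0.05 without CO A and 1.30 without CO B. Endothelial markers in these spots were at 83.2 and 104 CPM in CO A and CO B and at 388 and 358 in DES A and DES B, and their part in the Aqp1 level was not tested. Among the 10 spot clusters of each section, Aqp1 peaked at 353 (CO A), 913 (CO B), 932 (DES A) and 868 (DES B) CPM. The peak clusters ranked 3, 3, 1 and 2 for muscle markers in the same order. With the spots of a section ranked on muscle markers and divided into 4 equal groups, a split chosen after the data were seen, from the lowest to the highest group Aqp1 went from 27.8 to 263 CPM in CO A, 19.0 to 653 in CO B, 27.5 to 699.8 in DES A and 21.4 to 490.1 in DES B. Aqp5 was at 36.1, 24.2, 47.1 and 69.9 CPM in muscle-rich spots (log2 change 0.77, SE 0.34, edgeR adjusted p = 0.353). Its change was 1.06 without CO A. With 25% of spots its edgeR adjusted p was 0.0212, and with DESeq2 its adjusted p was 0.9994. Of the 2 members tested by edgeR neither was called nor passed an unadjusted p of 0.05, and DESeq2 called neither, where edgeR called 0.745% of 9798 genes higher and 0.408% lower.

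Within sections, epithelium-rich spots were compared with all other spots of the same section. In CO sections Aqp4, Aqp5 and Aqp8 were enriched there and Aqp1 depleted, so that 4 of 5 members tested were called by edgeR, where 24.7% of 13657 genes were called higher and 23.4% lower. The log2 enrichments were 1.48 for Aqp4 (SE 0.17, adjusted p = 1.34e-05), 1.17 for Aqp5 (SE 0.14, adjusted p = 1.36e-05) and 0.76 for Aqp8 (SE 0.21, adjusted p = 0.00824), and Aqp1 was at -4.11 (SE 0.28, adjusted p = 1.34e-07), or -5.00 without CO A and -3.26 without CO B. Aqp8 rested on CO B and lost its call without that section (adjusted p = 0.643), with DESeq2 (0.179) and with 10% of spots (0.260), in a range from 2.93e-07. In DES sections Aqp4 was enriched (0.71, SE 0.15, edgeR adjusted p = 0.00799) and Aqp1 depleted (-2.41, SE 0.27, adjusted p = 0.000106), where 1.98% of genes were called higher and 5.95% lower. Aqp4 lost the call without DES B (adjusted p = 0.335, in a range from 1.34e-10). Aqp5 in DES was at 0.43 (SE 0.13, edgeR adjusted p = 0.0739) and Aqp3 at -0.51 (SE 0.18, adjusted p = 0.112), and neither was called. Without CO A and without CO B the values were 0.42 and 0.42 for Aqp5 and -0.52 and -0.52 for Aqp3. The DES enrichment is fitted from the DES sections, so leaving out a CO section could hardly move it. Over all fits with 1 section left out, Aqp5 ran from 0.42 to 0.45 and Aqp3 from -0.67 to -0.25. Aqp8 was at 0.31 (SE 0.25, edgeR adjusted p = 0.563).

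In the test of the difference between the DES and CO enrichments 3 members were called, where 5.45% of genes were called higher and 4.25% lower. Aqp4 was less enriched in DES (difference -0.77, SE 0.22, edgeR adjusted p = 0.0465), as was Aqp5 (-0.74, SE 0.19, adjusted p = 0.0269), and Aqp1 was less depleted (1.70, SE 0.41, adjusted p = 0.0208). Epithelial markers in CO A and CO B were at 13021 and 11660 CPM in epithelium-rich and 5681 and 3898 CPM in other spots, whereas in DES A and DES B they were at 10117 and 10407 against 5264 and 5863 CPM. The contrast in markers was thus smaller in DES, and its part in these differences was not tested. The calls of Aqp4 and Aqp5 were lost without DES A (adjusted p 0.504 and 0.327), without DES B (0.112 and 0.359), with DESeq2 (0.231 and 0.0710) and with 10% of spots (0.150 and 0.0916), that of Aqp4 also with DESeq2 size factors (0.0691), and that of Aqp1 with 25% of spots (0.0774). The Aqp1 difference was 2.59 without CO A and 0.85 without CO B. Over 9 alternatives the adjusted p was 0.000143 to 0.504 for Aqp4, 3.92e-06 to 0.359 for Aqp5 and 9.93e-16 to 0.0774 for Aqp1.

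In the DES sections Aqp3 and Aqp4 were highest in the spots richest in basal markers, but of this pair only Aqp4 was also highest in those richest in epithelial markers. Spots were ranked and divided into 4 equal groups by their share of Krt14, Krt5 and Trp63 UMIs, a split also chosen after the data were seen and given as a description. From the lowest to the highest group Aqp3 went from 6.46 to 152 CPM in DES A and from 12.4 to 91.1 CPM in DES B. Aqp4 went from 21.8 to 231 CPM in DES A and from 72.2 to 253 CPM in DES B. By epithelial markers in place of basal ones, Aqp4 went from 16.3 to 240 CPM in DES A and from 16.7 to 251 CPM in DES B, whereas Aqp3 was highest in the second group, at 117 and 59.1 CPM, and was at 67.8 and 37.5 CPM in the highest. By basal markers, Aqp5 peaked at 413 CPM in the second group of DES A and at 534 CPM in the third of DES B, and Aqp8 peaked in the second group of both, at 10.0 and 75.0 CPM. In CO B, Aqp3 was at 0.379, 0.367, 1.15 and 21.2 CPM in ascending groups, and CO A held almost no basal UMIs (3.36 CPM), so its groups carry no order. In dissociated basal cells, Aqp4 was at 5.46 CPM, beside 3.93 CPM in non-basal DES cells outside cluster 5, although spots with many basal UMIs were rich in it.

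**Figure D5:**
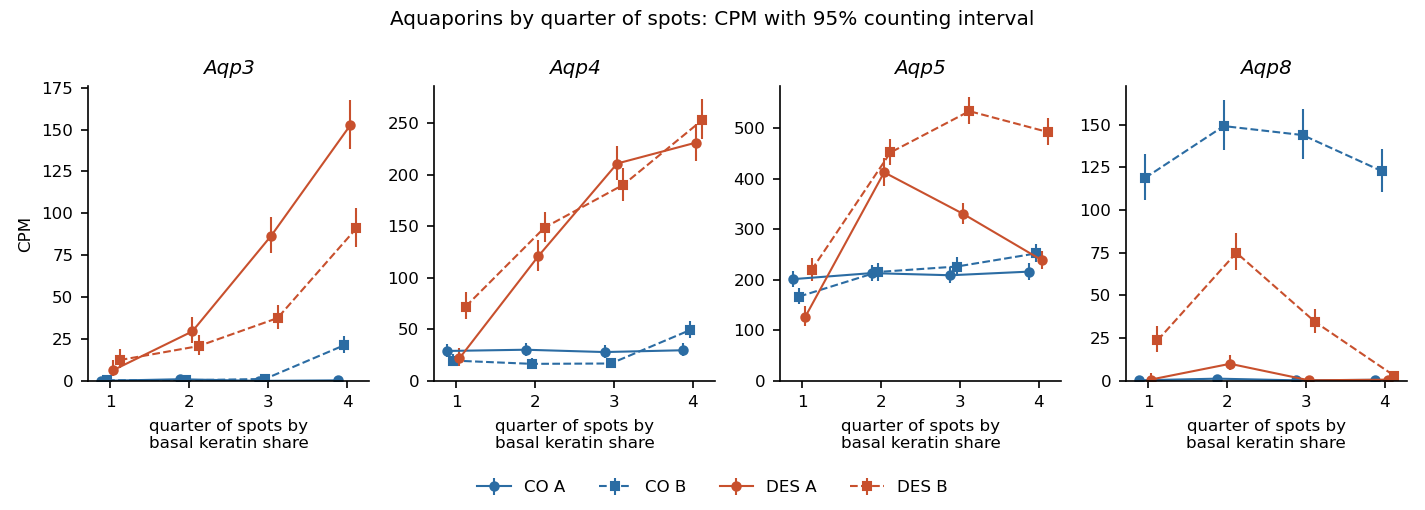
CPM with its 95% counting interval for 4 aquaporins in 4 equal groups of the spots of each section, ranked from 1 to 4 by the share of UMIs from Krt14, Krt5 and Trp63; CO sections are blue and DES sections red, with solid lines for A and dashed for B. In the highest group Aqp3 was at 152 in DES A and 91.1 in DES B and Aqp4 at 231 and 253, while Aqp8 peaked in the second DES group.

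A list of 32 genes of ion and fluid transport was set beside the aquaporins, since these proteins set the gradients that water follows. In non-basal epithelial cells 19 of the 32 reached 10 CPM in either library, of which 4 were at least 2-fold lower in DES, 1 was higher and 14 were neither, where 7.71% of 8414 genes were as much lower and 6.92% higher. Cftr, the chloride channel of secretory epithelium, was at 107 CPM in CO and 50.7 CPM in DES, and Slc12a2, the basolateral chloride importer, at 228 and 68.4 CPM. In sections Slc12a2 lay the other way, at 81.2 (CO A) and 66.7 (CO B) CPM against 135 (DES A) and 175 (DES B) CPM with no overlap of groups (log2 change 0.86, SE 0.23, edgeR adjusted p = 0.108), and DESeq2 called it. In epithelium-rich spots it was at 106, 84.2, 223 and 232 CPM in the same order (log2 change 0.94, SE 0.22, edgeR adjusted p = 0.0649). Slc4a4, a bicarbonate transporter, and Atp1b3, a subunit of the sodium pump, were the other 2 that were lower. Sgk1, a kinase that raises sodium channel activity, was the 1 that was higher, at 30.2 and 70.8 CPM.

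In whole sections 28 of the 32 were tested. Of these edgeR called 3 higher, Scnn1a, Kcne3 and Sgk1, and none lower, where 2.67% of all genes were called higher and 2.63% lower. Of the 28, 18 had an unadjusted p under 0.05 and DESeq2 called 9, of which 5 were higher in DES (these 3, Ano1 and Slc12a2) and 4 lower (Atp1b3, Fxyd4, Hsd11b2 and Slc26a9). Over all genes, 3438 of 14098 had an unadjusted edgeR p under 0.05, and DESeq2 called 5.44% of 14825 higher and 6.44% lower. Scnn1a, the alpha subunit of the epithelial sodium channel, was at 0.7996 (CO A) and 2.08 (CO B) CPM against 38.0 (DES A) and 49.5 (DES B) CPM, a log2 change of 4.73 (SE 0.47, edgeR adjusted p = 0.0212). Kcne3, a potassium channel subunit, was at 3.76, 1.90, 39.2 and 31.0 CPM in the same order (3.399, SE 0.39, edgeR adjusted p = 0.0232). Sgk1 was at 62.9, 74.9, 239 and 258 CPM (1.65, SE 0.18, edgeR adjusted p = 0.0219). Both DES sections lay above both CO sections for these 3 genes, and the median log2 change of the list was -0.12 beside -0.01 for all genes. The basal and muscle markers given above for whole sections also separated the groups, and their part in these changes was not tested. In dissociated non-basal epithelial cells Scnn1a was at 1.55 CPM in CO and 5.78 CPM in DES, whereas Kcne3 lay the other way from the sections, at 5.90 and 2.41 CPM, as did Ano1, at 4.40 and 0.969 CPM against 12.95 (CO A), 31.6 (CO B), 92.2 (DES A) and 85.4 (DES B) CPM in whole sections. Cftr was at 61.5, 20.8, 20.5 and 15.1 CPM and did not pass over whole sections (-1.44, SE 0.55, edgeR adjusted p = 0.203), but was called lower in epithelium-rich spots at 103, 52.5, 28.6 and 17.8 CPM (-2.07, SE 0.42, edgeR adjusted p = 0.0491). In those spots 3 of 26 tested genes of the list were called higher and 3 lower, where 3.89% of all genes were higher and 2.26% lower. Of the 26, 15 had an unadjusted p under 0.05 and DESeq2 called 11. Over all genes in these spots, 2747 of 11272 had such a p by edgeR, and DESeq2 called 4.36% of 12289 higher and 3.44% lower. The median log2 change of the list there was 0.07 beside -0.02 for all genes. In stromal and muscle-rich spots edgeR called 0 of 20 and 0 of 18, although 10 and 7 had an unadjusted p under 0.05 and DESeq2 called 3 and 1. Over all genes, 1194 of 8914 and 1393 of 9798 had such a p by edgeR. DESeq2 called 0.806% of all genes higher and 0.671% lower in stromal spots, and 0.824% and 0.927% in muscle-rich spots.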

How the data were processed

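The single-cell libraries were made with a 3′ kit. Per the submitters' processing notes and the study's methods, the authors used bcl2fastq 2.20.0.422, Cell Ranger 3.0.1 for cells and Space Ranger 1.2.2 for sections, on build mm10, and examined barcode swapping with DropletUtils and removed doublets with scran before deposit. The deposited values are raw UMI counts per gene and cell or spot, with a metadata table that the authors deposited of UMI, gene and read counts, the fraction of repeated reads (not used), cell types and cluster numbers. The metadata list 350 cells without counts, which were left out.

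UMIs were summed over cells of 1 library and type or cluster and divided by their total (CPM), with exact 95% Poisson intervals. Ratios carry exact conditional intervals and shares, taken with every cell thinned at random to 3000 UMIs, exact Clopper-Pearson intervals. Section sums over spots were tested with edgeR 4.0.16 (quasi-likelihood, TMM, filterByExpr) in R 4.3.3, with Benjamini-Hochberg adjustment over all genes tested at 0.05. Enrichment of epithelium-rich over other spots had the section as a block. With 2 sections a group, p-values measure the spread between those mice. Groups this small can also lie apart without any change, so a lack of overlap is given as a description only. In whole sections most genes of the transport list, called or not, had no overlap of groups. The share of all genes without overlap was not counted. With 1 section left out, 1 group has no spread of its own, so a call gained in such a fit is not read as support. DESeq2 1.42.0, its size factors, no filter, sections left out, a replicate block and other spot limits were alternatives. On simulated counts the whole-section fit recovered 82% of genes changed 4-fold and 99% of those changed 16-fold, over 14098 genes, with 18 false calls. Every simulated gene was given the same mean spread between sections. These shares therefore do not hold for genes that vary more between mice.

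All 7 members are named, the 5 other aquaporins by their counts, and from the transport list the 3 largest changes past the threshold in whole sections (only 3 genes passed, Scnn1a among them) plus Cftr and Scnn1a, with the other genes past the fold in cells added after their values were seen. The list genes that DESeq2 called in whole sections, Ano1 among them, were also added after their values were seen. For members with enough UMIs the 3 genes of most similar profile are named. The members and lists were chosen with earlier results of these data known. Promoter windows are RefSeq sequences, and gene positions follow the GENCODE annotation of GRCm38.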

Additional observations from a re-analysis of the deposited data

Results flagged for a closer look

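In the test of the difference itself, 3 members differed between DES and CO sections in their enrichment in epithelium-rich over other spots of the same section, where 5.45% of genes were called higher and 4.25% lower. Aqp1 was less depleted there in DES, with a difference of 1.70 on the log2 scale (SE 0.41, edgeR adjusted p = 0.0208), from enrichments of -4.11 in CO and -2.41 in DES. Aqp4 was less enriched in DES, with a difference of -0.77 (SE 0.22, edgeR adjusted p = 0.0465), from 1.48 and 0.71. Aqp5 was also less enriched in DES, with a difference of -0.74 (SE 0.19, edgeR adjusted p = 0.0269), from 1.17 and 0.43. The calls of Aqp4 and Aqp5 were lost with DESeq2 (adjusted p = 0.231 and 0.0710), without DES A (0.504 and 0.327), without DES B (0.112 and 0.359) and with 10% of spots (0.150 and 0.0916), and DESeq2 called Aqp1 alone of the members. The call of Aqp1 was lost with 25% of spots (adjusted p = 0.0774), and its difference was 2.59 without CO A and 0.85 without CO B. Of the regions compared, Aqp1 was highest in muscle-rich spots. Muscle markers were at 452 and 281 CPM in the epithelium-rich spots of CO A and CO B. They were at 803 and 1238 CPM in those of DES A and DES B, and their part in the Aqp1 difference was not tested.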

How the results depend on the processing

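Of 294 values of single members in sections under an alternative, 246 kept their direction and side of the threshold, 18 passed it newly, 20 lost it and 10 turned direction. The turned values were, in log2, Aqp8 in whole sections (4.65) and in epithelium-rich spots (4.27) without CO B, Aqp5 in epithelium-rich spots without DES B (-0.22), Aqp1 in muscle-rich spots without CO A (-0.048), Aqp5 in stromal spots without CO A (-0.11) and without DES A (-0.20), Aqp3 enrichment in CO with 25% of spots (0.21), and the difference of enrichments for Aqp3 without CO B (-0.42) and with 25% of spots (-0.64) and for Aqp8 without DES B (0.72). With 1 section left out these results ranged from -4.81 to 4.65 and -4.36 to 4.27 (Aqp8), -0.22 to 0.47 (Aqp5, epithelium-rich), -0.048 to 1.30 (Aqp1), -0.20 to 0.53 (Aqp5, stromal), -0.42 to 0.42 (Aqp3 difference) and -0.57 to 0.72 (Aqp8 difference). None of the turned values passed the threshold. Many of the values that passed newly came from fits with 1 section left out, which leave 1 mouse in a group. Of 68 single-cell values under an alternative, 25 were counted as moved. A share of cells with a UMI tends to rise as more UMIs per cell are read. The Aqp5 shares in CO and DES non-basal epithelial cells were 54.0% and 35.5% at the main thinning. They were 67.2% and 51.0% at 5000 UMIs and 94.2% and 86.0% before thinning. Aqp3 in all DES cells labelled epithelial was at 5.01 CPM, and at 9.11 CPM as a mean over cells. The causes of the other moves were not tested.

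The count of members called in whole sections was 1, and 2 with CO B lacking spot cluster 10, an alternative chosen after seeing the data. In epithelium-rich spots it was 2, and 1 with 25% of spots; in muscle-rich spots 0, and 1 with 25% of spots; in stromal spots 1, and 2 with no filter, with the replicate block and with spots chosen by stromal markers; in the difference of enrichments 3, and 1 with DESeq2 and with 10% of spots and 2 with DESeq2 size factors (without Aqp4) and with 25% of spots (without Aqp1). Leaving out 1 section gave 0 to 4 members in whole sections, 0 to 4 in epithelium-rich, 0 to 1 in muscle-rich and 0 to 1 in stromal spots, 3 to 4 enriched or depleted in CO, 1 to 4 in DES and 1 to 3 in the difference.

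Over all genes, edgeR called 747 in whole sections and DESeq2 1761. In muscle-rich spots it called 113, beside 187 with DESeq2, 792 with no filter, 272 with the block, 69 with 10% and 571 with 25% of spots. In stromal spots it called 131, beside 714 with no filter and 453 with the block. DESeq2 gave 3783 in place of 6569 for enrichment in CO, 535 in place of 1084 in DES and 538 in place of 1325 for the difference, which was 857 with 10% and 2018 with 25% of spots. Leaving out 1 section gave 3 to 2819 genes in whole sections, 134 to 2210 in epithelium-rich, 18 to 1257 in muscle-rich and 40 to 357 in stromal spots, 5359 to 6843 for enrichment in CO, 408 to 2628 in DES and 692 to 3467 for the difference.

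Same-letter deviations of the sections correlated at -0.025, 0.024, -0.018 and 0.090 over genes in the 4 comparisons. Each group holds a single section of each letter, so these values cannot show whether a letter marks a shared batch. With the letter as a replicate block 527 genes were called in whole sections and 690 in epithelium-rich spots, and of the members only Aqp1 in stromal spots changed its call (adjusted p = 0.0362). Aqp9 and Aqp11 had too few UMIs in most regions to be tested.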
